A study of Mus musculus with 44 samples.

Results

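Primary cortical neurons of the mouse that were transduced with a lentivirus expressing miR-1 were compared with neurons transduced with a lentivirus expressing GFP alone. The libraries were chosen by their labels as the RNA-seq and TAIL-seq libraries of these cultures, 4 of the 44 samples of the series. Cortices of newborn pups had been dissociated, grown with araC to limit dividing cells and harvested at day 14 in vitro (DIV14). In each virus, the synapsin promoter, which is active in neurons, drove EGFP, and in the miR-1 virus the EGFP 3′ UTR also carried the miR-1a-1 precursor with flanking sequence. The GFP culture was therefore a control for the virus and the reporter but not for the presence of a pri-miRNA in the 3′ UTR. Each culture held the glia and untransduced cells that remained in it, and the share of transduced cells was not analysed here. Of the other DIV14 cultures, a miR-155 culture made with the same vector and an unstimulated, untransduced culture are used below as further references, so that 8 libraries enter the text. Each culture had 1 library per assay, so that no difference below has a replicate check and no p-value is given.

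miR-1 is a microRNA of heart and skeletal muscle and is scarce in neurons. A microRNA guides an Argonaute protein to mRNAs that pair with its seed, mostly in their 3′ UTRs, and recruits deadenylases that shorten the poly(A) tail and bring about decay of the mRNA. The best sites pair with the whole seed and its neighbouring base and also carry an A opposite the start of the microRNA (8mer). Sites that lack the A (7mer-m8), lack the neighbouring match (7mer-A1) or lack both (6mer) are weaker. Because neurons hold little miR-1 of their own, its introduction exposes many mRNAs to a regulator that they do not usually meet.

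The RefSeq annotation of GRCm38.p6 places the mature arm of Mir1a-1, the precursor used in the virus, on the plus strand of chromosome 2 from 180389096 to 180389117. From its first letters the sites in mRNAs are ACATTCCA (8mer), ACATTCC (7mer-m8), CATTCCA (7mer-A1) and CATTCC (6mer). Only the transcript strand was searched, each site was assigned to its longest form, and each mRNA to the best site in its 3′ UTR. Of the 15075 annotated transcripts in the files, 571 had an 8mer as their best 3′ UTR site, 939 a 7mer-m8, 1032 a 7mer-A1 and 1915 a 6mer, and 7204 held CATTCC nowhere (no-site mRNAs). The sites of the mRNAs on which the results turn are shown here as 30 letters of the mRNA strand, with the 8mer in capitals and with coordinates of the 8mer alone.
Mmd, chr11:90277473-90277480, plus strand: gcaaacggtcaACATTCCAcgaacaaacat
Sri, chr5:8067589-8067596, plus strand: gaatatattcaACATTCCAactggaactcg
Sri, chr5:8069158-8069165, plus strand: tggtgaaataaACATTCCAtaagcatcttc
Mmd2, chr5:142564069-142564076, minus strand: gaccaaggcatACATTCCAaacaggtcctg
Uhrf1bp1l, chr10:89818709-89818716, plus strand: agcattcctgtACATTCCAttaaatgtgtg
Clcn3, chr8:60912573-60912580, minus strand: atcacctttctACATTCCAaaagagcttct
Tmsb4x, chrX:167207465-167207472, minus strand: atatgcactgtACATTCCAcgagcattgcc
Ip6k2, chr9:108806255-108806262, plus strand: ctgtttcttcaACATTCCAcatttgatgat

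RNA-seq reads had been counted on the coding part of a representative transcript, and TAIL-seq counted 3′ ends (tags) and the length of their poly(A) tails. The GFP culture had 448022 RNA-seq reads and 389654 tags on genes, and the miR-1 culture had 968675 reads and 446538 tags. In the references, reads numbered 2111244 (miR-155) and 508771 (untransduced), and tags 480037 and 1042761. Levels are given in CPM, reads or tags scaled to the same total on genes in every library, and changes are log2 ratios of the miR-1 culture to the GFP culture. A mean of 10 RPM over the GFP and miR-1 libraries, with the RPM values (reads scaled to the library's total) that the authors deposited, was passed by 4750 genes, of which 3567 also had 30 tags or more in sum. Their median depth in the GFP culture was 49 reads, and intervals given for single genes are 95% Clopper-Pearson intervals of the ratio that cover counting error only. Neuronal markers were abundant in both cultures: 10 pan-neuronal genes summed to 5669 CPM with GFP and 6676 CPM with miR-1, whereas 11 microglia genes, 9 of them at 0 in both, summed to 4.46 and 3.10 CPM, 7 muscle genes to 6.70 and 7.23 CPM, and 6 vascular genes to 20.1 and 15.5 CPM.

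A gene was counted as lower or higher when it differed by at least 1.5-fold. By RNA-seq, 299 of 4750 genes were lower in the miR-1 culture (6.29%) and 269 were higher (5.66%). By TAIL-seq tags, 285 of 3567 were lower (7.99%) and 296 were higher (8.3%). In both assays together, 83 genes were lower (2.33%) and 55 were higher (1.54%). That balance depended on scaling: median-of-ratios scaling gave 67 lower and 80 higher, and the authors' RPM totals, which raise all RNA-seq changes by 0.28 (log2), gave 37 and 120. Across genes the changes in the assays correlated with a Pearson r of 0.415 and a Spearman rho of 0.346 (3567 genes, which are not independent replicates, of 2 cultures and not of replicate cultures). The SD of RNA-seq changes over genes, in the 3 comparisons with the same GFP library, was 0.40 (log2) for miR-1, 0.35 for miR-155 and 0.41 for the untransduced culture, and 0.26, 0.24 and 0.30 of these would be given by counting alone.

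mRNAs with a miR-1 site were lower in the miR-1 culture, and their mean changes followed the order of the strength of the site. By RNA-seq, the mean change of 216 mRNAs with an 8mer was −0.31 (log2; SD over mRNAs 0.51) relative to the median of 2081 no-site mRNAs. The change was −0.18 for 340 mRNAs with a 7mer-m8 (SD 0.43), −0.13 for 380 with a 7mer-A1 (SD 0.40) and −0.078 for 637 with a 6mer (SD 0.37). Medians in the same order of classes were −0.26, −0.14, −0.13 and −0.066, so that those of the 7mer classes were nearly equal. Below the no-site median lay 163 of the 216 8mer mRNAs (75.5%), 66.2% of the 7mer-m8, 63.9% of the 7mer-A1 and 59.0% of the 6mer mRNAs. These effects are differences between classes of mRNA within 1 pair of libraries, so that a common shift in scale leaves them as they are.

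**Figure D1:**
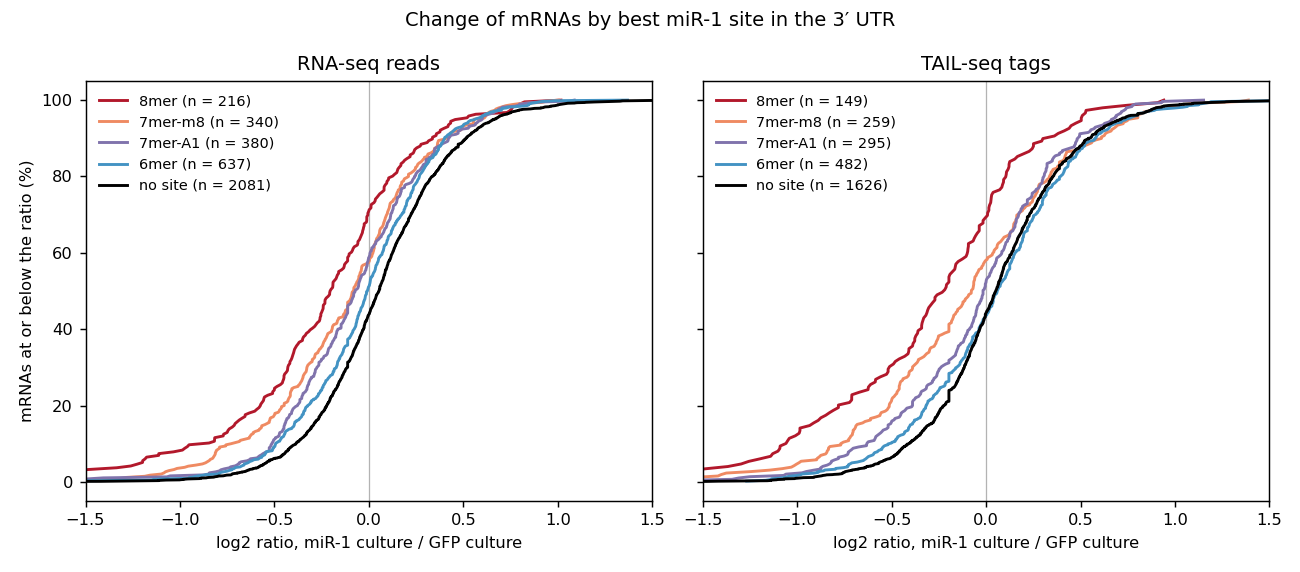
Cumulative share of mRNAs (y axis, percent) by log2 ratio of the miR-1 to the GFP culture (x axis) for RNA-seq reads (left) and TAIL-seq tags (right), with 1 line for each class of best 3′ UTR site. The 8mer line lies farthest to the left in both panels, and in TAIL-seq the 6mer line runs close to the no-site line.

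TAIL-seq tags, which count 3′ ends where RNA-seq counted coding reads, gave the same order. The change was −0.38 for 149 8mer mRNAs (SD 0.55), −0.17 for 259 with a 7mer-m8, −0.12 for 295 with a 7mer-A1 and −0.023 for 482 with a 6mer. The interval from counting error was −0.43 to −0.33 for the 8mer class, and for the 6mer class it included 0 (−0.054 to 0.0073). An effect of 6mers on tags was therefore not seen beyond counting error, and these intervals leave out differences between cultures. In the untransduced culture against GFP, without miR-1, the same class gave −0.031 (−0.060 to −0.0031). Summed over the 8mer mRNAs, the level was 43036 CPM with GFP and 38494 CPM with miR-1 in RNA-seq, and 40587 and 30994 CPM in TAIL-seq. Of these TAIL-seq sums, Tmsb4x alone held 9555 and 4000 CPM, so that a single gene carried much of that drop.

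The 8mer mRNAs differed less between the cultures without miR-1. For 6mers, and for 7mer-A1 sites in tags, some counting intervals of the comparisons overlapped. The comparisons with GFP share that library. In RNA-seq, the 8mer class changed by −0.31 in the miR-1 culture, by 0.0038 in the miR-155 culture (counting interval −0.026 to 0.034) and by −0.019 in the untransduced culture (−0.057 to 0.019), each against GFP. For the 7mer-m8 class the values were −0.18, −0.043 and −0.069 in the same order, and for the 6mer class −0.078, −0.025 and −0.054. The counting interval of the 6mer effect in the miR-1 culture (−0.098 to −0.057) overlapped that in the untransduced culture (−0.077 to −0.031). The 7mer-A1 class changed by −0.13, −0.036 and −0.045. In tags, the changes in the same order were −0.38, −0.015 and −0.047 for the 8mer, −0.17, −0.023 and −0.016 for the 7mer-m8, −0.12, −0.057 and 0.013 for the 7mer-A1 and −0.023, −0.0084 and −0.031 for the 6mer class. The tag effect of 6mers in the miR-1 culture thus lay between those of the 2 cultures without miR-1. Between those cultures themselves, untransduced against miR-155, the 7mer-A1 class differed by 0.089 in tags (0.057 to 0.12), and the 8mer class by −0.0019 (−0.046 to 0.042). With the miR-155 culture in place of GFP as the reference of the miR-1 culture, the 8mer effect was −0.31 in RNA-seq and −0.37 in tags, and with the untransduced culture it was −0.30 and −0.36.

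**Figure D2:**
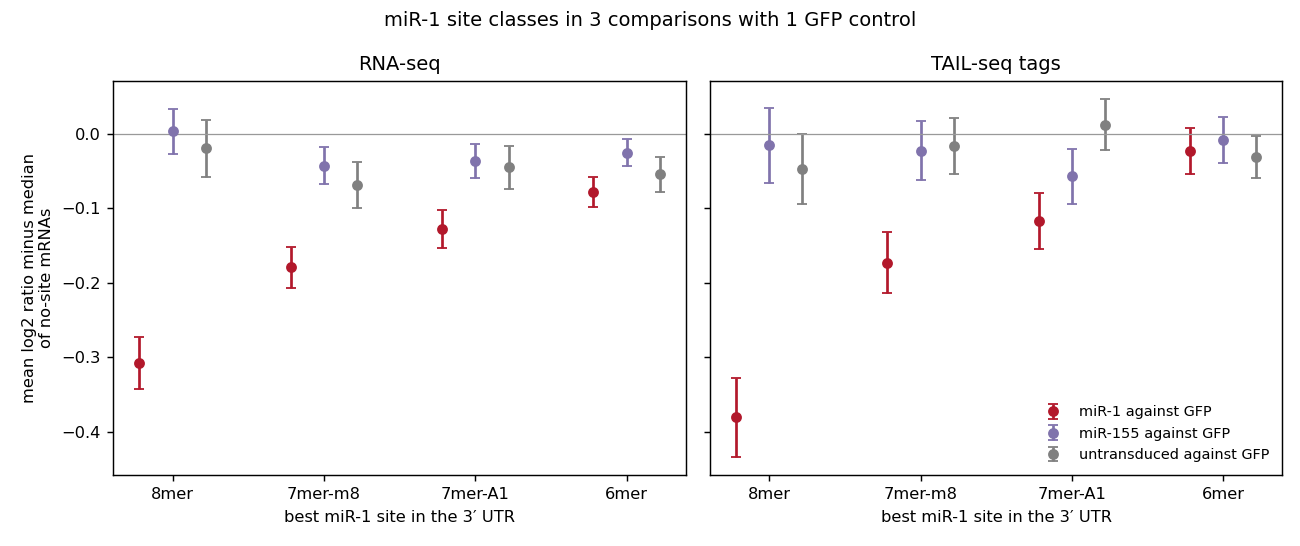
Mean log2 ratio of each miR-1 site class minus the median of no-site mRNAs (y axis) for 3 comparisons with the same GFP library, in RNA-seq (left) and TAIL-seq tags (right); bars are 95% intervals from counting error. The 8mer point of the miR-1 culture lies at −0.31 and −0.38, and the 8mer points of the other cultures lie between −0.047 and 0.0038.

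A second description used all 4 DIV14 cultures without reference to the size of the change. Of the 216 8mer mRNAs, 94 (43.5%) had their lowest RNA-seq level in the miR-1 culture, where 24.6% of all 4750 genes did. The share was 37.9% for the 7mer-m8, 28.9% for the 7mer-A1, 21.4% for the 6mer and 20.3% for the no-site mRNAs. In both assays, 52 of 149 8mer mRNAs (34.9%) were lowest with miR-1, compared with 10.6% of all genes. Of the genes lower by 1.5-fold in both assays, 20 of the 149 8mer mRNAs (13.4%) and 17 of the 1626 no-site mRNAs (1.05%) were counted, next to 2.33% of all genes. Most 8mer mRNAs did not reach that fold, and 1 of them, Rgs4, was higher in both assays.

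The number of sites went with the mean difference in some classes and not in others. A single 8mer without a 7mer gave −0.27 (145 mRNAs; SD 0.44) in RNA-seq and −0.33 in tags (98 mRNAs), and an 8mer with at least 1 further 8mer or 7mer gave −0.39 (71 mRNAs; SD 0.63) and −0.49 (51 mRNAs). Their medians in RNA-seq were closer, at −0.25 and −0.30. The 11 mRNAs with 2 or more 8mers had a mean of −0.31 but a median of −0.087. Counting 8mers and 7mers together, the RNA-seq mean was −0.17 for 1 site (753 mRNAs; median −0.15), −0.24 for 2 or more (183 mRNAs; median −0.18) and −0.21 for 3 or more (44 mRNAs; median −0.10). In tags these means were −0.17, −0.27 and −0.44, so that the assays differed in whether 3 or more sites went with a lower mean. An 8mer in the coding sequence, with none of the 4 sites in the 3′ UTR, went with −0.16 in RNA-seq (154 mRNAs; SD 0.38) and −0.15 in tags (99 mRNAs). For 7mers in the coding sequence the values were −0.073 (453 mRNAs) and 0.0022 (317 mRNAs). Among mRNAs with a single 8mer, those with the site within 401 nt of an end of the 3′ UTR had a median of −0.35 in RNA-seq and the others −0.18. In tags these medians were −0.37 and −0.21. Median changes of mRNAs with 3′ UTRs shorter than 2214 nt and of the longer ones were −0.31 and −0.17 in RNA-seq, and distance and length are not independent of each other. The share of A and U within 30 nt on either side split the RNA-seq medians into −0.17 below and −0.31 above 53.3%, but the tag medians were −0.29 and −0.26, so that the assays differed in direction. With SDs of 0.41 to 0.46 over mRNAs in RNA-seq, the groups split in this way overlapped widely.

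The 15 8mer mRNAs that were lowest in both assays were chosen by their change against GFP, so that their folds describe the members and are no evidence. They were 1.62- to 4.72-fold lower in RNA-seq and 1.72- to 4.13-fold lower in tags. The counting interval of the RNA-seq ratio excluded 1 for all 15, and that of the tag ratio for 13 (Smarcb1 and Dnajc3 were the exceptions). All 15 were lowest with miR-1 among the 4 cultures in each assay, which their choice for low values in that culture largely fixes: of 10 no-site genes chosen in the same way, 9 were lowest in each assay. With the authors' RPM values, all 15 remained below GFP, by 1.34- to 3.89-fold. Of all 20 8mer mRNAs that were lower in both assays, 16 were also at least 1.5-fold lower in RNA-seq than in the miR-155 culture and than in the untransduced culture, a count that uses the same miR-1 library again and is no separate evidence.

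Mmd and Mmd2 encode paralogous membrane proteins of the progestin and adipoQ receptor family, which reside in the Golgi. Mmd stood at 116 CPM in the untransduced culture, 107 with GFP, 139 with miR-155 and 22.7 with miR-1, 4.72-fold below GFP (interval 2.79 to 8.21). Its tag levels were 294, 305, 400 and 73.9 CPM in the same order (4.13-fold lower; 2.79 to 6.28). The culture with miR-1 stood apart from the other 3, which lay close together. Mmd2 had 238 CPM (untransduced), 212 (GFP), 140 (miR-155) and 57.8 (miR-1), and 286, 275, 196 and 80.6 CPM of tags. It was 3.67-fold (2.61 to 5.20) below GFP in RNA-seq and 3.41-fold (2.32 to 5.12) in tags.

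**Figure D3:**
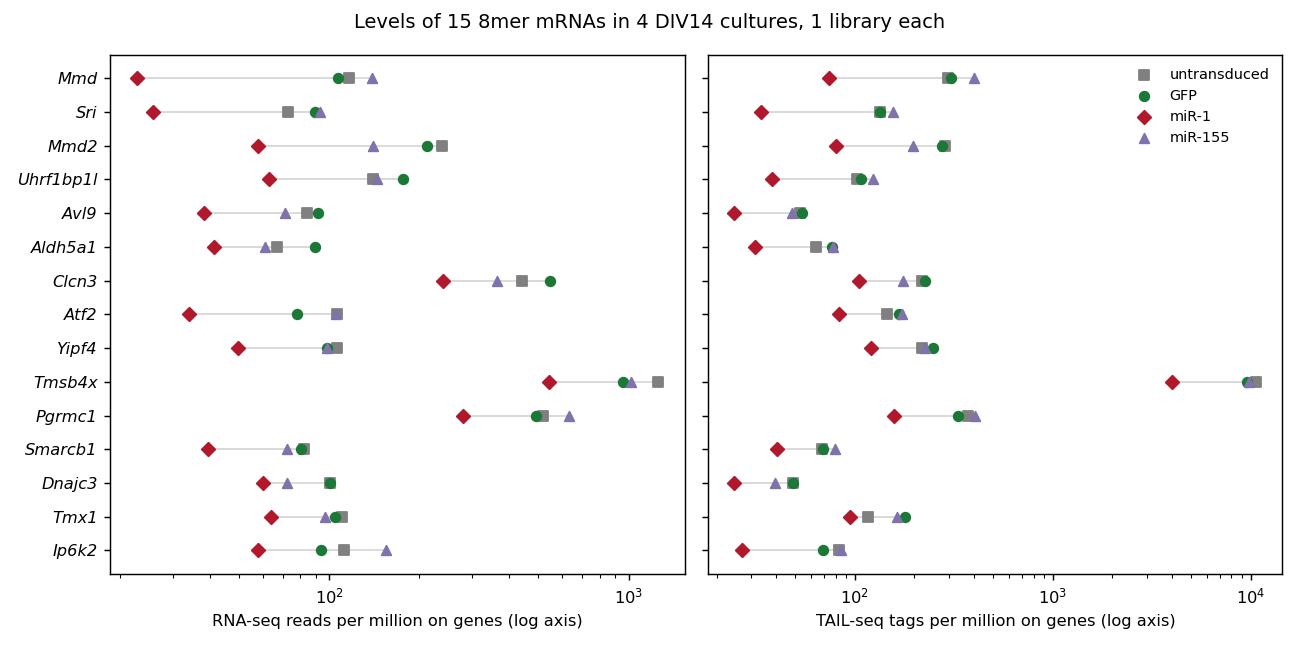
Levels of the 15 named 8mer mRNAs in CPM of RNA-seq reads (left) and TAIL-seq tags (right), on log axes, with 1 symbol for each of the 4 DIV14 cultures and 1 library each. The red diamond of the miR-1 culture is the lowest symbol in all 15 rows of both panels.

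Sri, which encodes sorcin, a calcium-binding protein that modulates ryanodine receptors, carries the pair of 8mers printed above, of which the upstream one begins 30 nt into the 3′ UTR. It had 72.7 CPM (untransduced), 89.3 (GFP), 93.3 (miR-155) and 25.8 (miR-1), and was 3.46-fold lower than GFP in RNA-seq (2.05 to 5.95) and 3.97-fold lower in tags (2.20 to 7.60). The miR-1 value was again far below the others. More 8mers did not always go with a lower level relative to GFP. Coro1c, an actin-binding coronin with 2 8mers, was 1.45-fold lower in RNA-seq (1.02 to 2.05) and 3.29-fold lower in tags (2.04 to 5.48). Pdxk, the kinase that makes pyridoxal phosphate, also has 2 and was 1.47-fold (1.01 to 2.13) and 1.26-fold (0.74 to 2.17) lower. Knop1, a nucleolar protein with 2, had a ratio of 0.98 in RNA-seq and 0.79 in tags. Its RNA-seq level was 53.6 CPM with GFP (24 reads) and 52.6 with miR-1, but 93.3 with miR-155 and 84.5 in the untransduced culture. It was lowest with miR-1 in both assays. Kalrn, a GTPase exchange factor of dendritic spines, has 3, and its RNA-seq ratio to GFP was 1.16 (0.99 to 1.38). The ratio of its tags was 0.61 (0.29 to 1.27) on 20 and 14 tags.

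Other members act in membranes and transport. Clcn3, an endosomal and vesicular chloride–proton exchanger, was among the most precisely measured, with 547 CPM for GFP, 241 for miR-1, 364 for miR-155 and 440 for untransduced neurons. It was 2.27-fold below GFP (1.89 to 2.73) in RNA-seq and 2.15-fold (1.49 to 3.13) in tags. Uhrf1bp1l, a lipid-transfer protein of endosomes, had 176 CPM with GFP and 63.0 with miR-1 (2.80-fold lower; 1.98 to 3.98), while the miR-155 and untransduced cultures had 144 and 140 CPM. Avl9, of the late secretory pathway, and Yipf4, of the Golgi, were 2.40-fold (1.5 to 3.84) and 1.98-fold (1.29 to 3.05) lower. Pgrmc1, a heme-binding membrane protein, had 491 CPM with GFP and 279 with miR-1 (1.76-fold; 1.47 to 2.11). Dnajc3 and Tmx1 act in protein folding in the endoplasmic reticulum, and were 1.68-fold (1.11 to 2.52) and 1.64-fold (1.10 to 2.43) lower.

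Tmsb4x encodes thymosin β4, which sequesters actin monomers, and was by far the most abundant of the 15 in TAIL-seq. Its tag level was 10690 CPM in the untransduced culture, 9555 with GFP, 9828 with miR-155 and 4000 with miR-1, 2.39-fold below GFP (2.26 to 2.53). The 3 cultures without miR-1 differed from each other far less than from the miR-1 culture. In RNA-seq, the levels were 1258, 955, 1022 and 542 CPM, 1.76-fold below GFP (1.55 to 2.01), and how the authors divided reads between this gene and its pseudogenes is not given in the sources used here. Its site begins 29 nt into a 3′ UTR of 407 nt. Atf2, a transcription factor of the CREB/ATF family, was 2.29-fold lower (1.38 to 3.81), and Smarcb1, a core subunit of SWI/SNF chromatin remodelers, 2.05-fold (1.26 to 3.32). Aldh5a1, which oxidises succinic semialdehyde in the breakdown of GABA, was 2.16-fold lower (1.36 to 3.44), and Ip6k2, an inositol hexakisphosphate kinase, 1.62-fold (1.06 to 2.46) with 2.58-fold fewer tags (1.26 to 5.59). Of the 16 sites of these 15 mRNAs, 8 lay within 150 nt of an end of the 3′ UTR. The share among all 8mer sites was not computed, so that this count describes these mRNAs only.

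Some 8mer mRNAs were instead higher than in the GFP culture. Kcnf1, a potassium-channel subunit, Phactr3, which binds protein phosphatase and actin, Rgs4, a GTPase activator for heterotrimeric G proteins, and Prkce, a protein kinase C, were among the 5 with the highest RNA-seq ratios of the class, from 1.66 to 2.02. All 4 intervals lay above 1. In tags their ratios ran from 1.00 (Prkce) to 1.53 (Rgs4). Against the miR-155 culture, the RNA-seq changes of Kcnf1, Phactr3 and Prkce were smaller, at 0.45, 0.34 and 0.21 (log2). Against the untransduced culture they were 0.071, 0.47 and 0.82. The GFP level of Kcnf1, 35.7 CPM on 16 reads, was the lowest of the cultures. Rgs4 stood at 304 CPM with GFP, 509 with miR-1, 275 with miR-155 and 301 in the untransduced culture. An 8mer thus did not exclude a higher level in the miR-1 culture.

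The lists of synaptic genes held both lower and higher genes. Of 16 presynaptic genes, 2 were lower and 1 was higher in RNA-seq (6.29% and 5.66% of all genes were), with a median of −0.12 (log2), where all genes had a median of 0.00083. In tags, 5 of 13 were lower and 1 was higher, next to 7.99% and 8.3% of all genes, with a median of −0.13. Of the 16 presynaptic genes, 8 have an 8mer or 7mer in the 3′ UTR, as do 936 of all 4750 genes. Syt1, the calcium sensor of transmitter release, has a 7mer-m8 and 2 7mer-A1 sites. It had 346 CPM with GFP, 163 with miR-1, 340 with miR-155 and 320 in untransduced neurons, 2.12-fold below GFP (1.69 to 2.66). Cplx2, a complexin that clamps and promotes vesicle fusion, has an 8mer and was 1.51-fold lower (0.96 to 2.34) in RNA-seq, with 477 and 224 CPM of tags. Stx1a, of the fusion machinery, had a ratio of 1.41 (1.08 to 1.86). Of 20 postsynaptic genes, 1 was lower (Shank1, a scaffold without a 3′ UTR site, 80.4 and 37.2 CPM) and 1 higher (Camk2a, the calcium–calmodulin kinase, 71.4 and 152 CPM), with a median of −0.029. These shares were near those of all genes. Dlg4, which encodes the scaffold PSD-95 and has an 8mer, had a ratio of 0.78, and Homer1, a scaffold, 1.29. Of 27 actin regulators, 2 were lower (Tmsb4x and Cnn3, a calponin with a 7mer-m8) and 2 higher (Twf2 and Tagln3), shares near those of all genes, with a median of −0.042. Of 34 published miR-1 targets, 15 were measured, 2 were lower and none was higher in RNA-seq, with a median of −0.25. The median was −0.066 against miR-155 and −0.13 against the untransduced culture. In tags, 4 of 14 were lower, next to 7.99% of all genes, and none was higher (median −0.15). With the authors' RPM totals, which add 0.28 to every gene alike, the RNA-seq median was 0.027. The lowest of these published targets were Tmsb4x, Cnn3, Anxa5 and Gpd2, and Bdnf, among the highest, had a ratio of 1.14 (0.70 to 1.91).

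**Figure D4:**
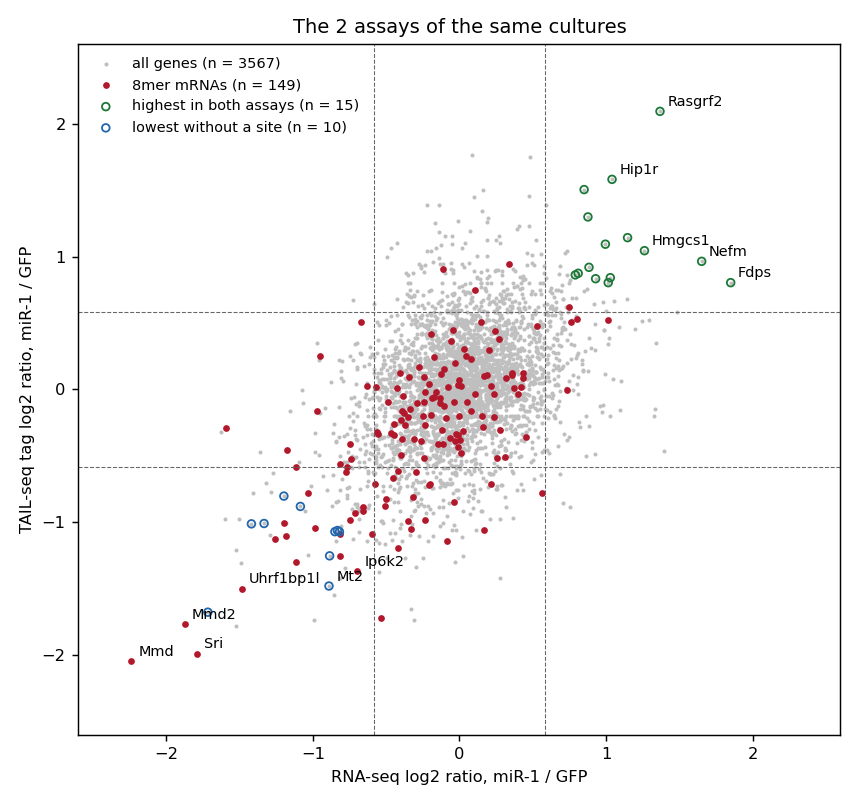
Log2 ratio of the miR-1 to the GFP culture in RNA-seq (x axis) and TAIL-seq tags (y axis) for 3567 genes, with 149 8mer mRNAs in red, the 15 highest genes circled in green and the 10 lowest no-site genes circled in blue; dashed lines mark 1.5-fold. Mmd, Sri and Mmd2 lie at the lower left, and no-site genes lie among the 8mer mRNAs there.

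Genes without any site were also lower, and the lowest included Apoe and Mlc1, which astrocytes are known to express. The 10 named were 1.76- to 3.29-fold lower in RNA-seq and 1.75- to 3.20-fold lower in tags. Pla2g7, the secreted hydrolase of platelet-activating factor, had 509 CPM with GFP and 155 with miR-1 (3.29-fold lower; 2.66 to 4.07), but it also differed among the other cultures, with 249 CPM with miR-155 and 719 in the untransduced one. Apoe, the main lipid carrier of brain, stood at 2540 (untransduced), 1993 (GFP), 1475 (miR-155) and 1079 CPM (miR-1). Mlc1, an astrocyte membrane protein, followed the same order with 425, 283, 190 and 113 CPM. This order, untransduced above GFP above miR-155 above miR-1, was seen for 6 of these 10 genes and for 3 of the 15 8mer mRNAs described above. It was counted after the values had been seen. Both sets were chosen for low values with miR-1, which fixes part of the order, and the share over all genes was not computed. Also named were Pltp (phospholipid transfer), Mt2 (a metallothionein), Serpinh1 (a collagen chaperone), Ptprm (a receptor phosphatase), Igfbp3 (a growth-factor binding protein), Psph (serine synthesis) and Ephx1 (an epoxide hydrolase). The 10 astrocyte markers summed to 2469, 1893, 1299 and 1667 CPM in the untransduced, GFP, miR-155 and miR-1 cultures. Of the 7 measured, 5 were below GFP in the miR-1 culture, none by 1.5-fold in RNA-seq, with a median of −0.18 that was 0.32 against miR-155. Their ratios ran from 0.72 (Gfap) and 0.73 (Slc1a2) to 1.11 (Aldoc) and 1.45 (Aqp4). Markers of inhibitory neurons were lower too. All 5 measured were below GFP, where the median change of all genes was 0.00083 (log2). The 10 markers of the list summed to 1536 CPM for GFP, 948 for miR-1, 1107 for miR-155 and 1079 for the untransduced culture, so that here the GFP culture stood apart. The median of −0.69 shrank to −0.17 and −0.042 against the other 2 references. Npy, a neuropeptide, had a ratio of 0.45 in RNA-seq, and Slc32a1 and Calb2 had 0.95 and 0.96. In tags the ratios of Npy, Slc32a1 and Calb2 were 0.89, 0.66 and 0.76, so that the assays ranked them differently. Gad2, which makes GABA, had 379 CPM with GFP and 178 with miR-1, and 183 in the untransduced culture. The 8 cycling progenitor markers summed to 310 and 165 CPM, of which 239 and 104 belonged to the progenitor filament gene Nes. In such bulk cultures, fewer cells of a type and less RNA per cell cannot be told apart. The part of cell composition in the lower no-site genes was not tested.

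Genes of sterol synthesis made up 5 of the 15 highest genes. They were listed after the values had been seen, so that their counts are a description. Of 18 measured, all were above GFP in RNA-seq, 13 by at least 1.5-fold (5.66% of all genes were), and the median was 0.91 (log2). In tags, 8 of 17 were higher by 1.5-fold (8.3% of all genes were), and the median was 0.58. Hmgcs1, which makes HMG-CoA, had 951 CPM with GFP and 2282 with miR-1 (ratio 2.40; 2.16 to 2.67), and Sqle, squalene epoxidase, 232 and 428 CPM (1.85; 1.49 to 2.31). Mvd, mevalonate decarboxylase, had a ratio of 2.80 (1.77 to 4.61), and Sc5d, a late enzyme of the pathway, had 1.14. Fdps, farnesyl diphosphate synthase, rested on 10 and 78 reads (3.61; 1.86 to 7.82). However, the summed level of the list was 5450 CPM in the untransduced, 3158 in the GFP, 4586 in the miR-155 and 6163 in the miR-1 culture. The GFP culture was the lowest of the 4, and against the untransduced culture the median was 0.25. The part of the batch in these values was not tested, since the cultures of the study's 2 batches are not named.

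Nefm and Rasgrf2 were also among the 15 highest genes. Nefm, the medium neurofilament, was at 44.6 CPM with GFP, 140 with miR-1, 29.8 with miR-155 and 35.4 in the untransduced culture (ratio to GFP 3.15; 1.96 to 5.31), and its tag level was 87.3 and 170 CPM (1.95; 1.29 to 3.02). Unlike the sterol genes, it stood apart from all 3 other cultures. The related Nefl had a ratio of 1.66 (1.46 to 1.89), with 685 CPM for GFP and 1138 for miR-1. The 9 measured pan-neuronal markers as a list had a median of 0.053, with 4 below GFP. Of them, 3 were higher and 1 was lower, next to 5.66% and 6.29% of all genes. Map2, a dendritic microtubule protein, had a ratio of 0.89. Rasgrf2, an exchange factor for Ras that responds to calcium, was at 26.8 and 69.2 CPM (2.58; 1.39 to 5.25). Fos, the immediate-early transcription factor, was at 44.6 and 80.5 CPM (1.80; 1.09 to 3.11), and Arc, of the same list, at 29.0 and 71.2 CPM (2.45; 1.35 to 4.84). All 3 measured immediate-early genes were above GFP, with a summed level of the list of 232 and 412 CPM, 381 with miR-155 and 161 untransduced. The median change of all genes was 0.00083 (log2). Hip1r, Sorcs2, Rrp12, Ajap1, Slc2a6, Dok5, Lingo1, Acat2 and Mvk were the other genes named. Of all 55 genes higher in both assays, 14 were also 1.5-fold higher in RNA-seq than both further references. Of the 83 lower genes, 40 were 1.5-fold lower than both. These counts use the same miR-1 library again and are no separate evidence, and the share over all genes was not computed. Markers of excitatory neurons were higher as well: all 4 measured were above GFP, and their list summed to 368 CPM for GFP, 608 for miR-1, 531 for miR-155 and 438 for the untransduced culture. Their RNA-seq median of 0.80 (log2) was 0.16 against miR-155 and 0.59 against the untransduced culture. The vesicular glutamate transporters Slc17a7 and Slc17a6 had ratios of 1.67 (1.18 to 2.40) and 1.83 (1.12 to 3.11), and Neurod6 1.28 (0.92 to 1.80).

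The remaining lists had these values. Medians were −0.0070 for 13 V-ATPase subunits, 0.037 for 21 cytosolic ribosomal protein genes and −0.070 for 8 stress response genes, with none at 1.5-fold in RNA-seq. The V-ATPase ratios ran from 0.76 (Atp6v1f) and 0.77 (Atp6v0a1) to 1.10 (Atp6v0d1) and 1.27 (Atp6v0e2), and those of ribosomal proteins from 0.82 (Rplp1) and 0.83 (Rplp2) to 1.35 (Rps14) and 1.37 (Rpl13a). In tags, 2 of the 8 stress response genes were lower and 1 was higher, next to 7.99% and 8.3% of all genes. Ccng1 and Mdm2, targets of p53, had RNA-seq ratios of 0.73 and 0.83 and tag ratios of 0.46 (0.33 to 0.63) and 0.62 (0.37 to 1.02), and Xbp1 and Atf4, transcription factors of the unfolded protein and integrated stress responses, had RNA-seq ratios of 1.10 and 1.48. Among 11 genes of miRNA machinery and decay the median was −0.18 in RNA-seq and 0.20 in tags, and none reached 1.5-fold. Cnot1, the scaffold of the CCR4–NOT deadenylase, which has an 8mer, and Tnrc6a had ratios of 0.76 and 0.79, and the processing enzymes Dicer1 and Drosha 1.27 and 1.32. Of 16 enzymes of glycolysis and the pentose phosphate pathway, 3 were higher and none was lower in RNA-seq (5.66% and 6.29% of all genes were). Their median was 0.20 in RNA-seq but −0.0039 in tags. Gpd2 and Tkt, each with an 8mer, had ratios of 0.71 and 0.77, and Ldha and Pfkp 1.36 and 1.55. The interferon-stimulated genes summed to 98.2 CPM with GFP and 63.0 CPM with miR-1. The 7 fibroblast genes in the files summed to 132 and 116 CPM, and the 10 oligodendrocyte-lineage genes to 134 and 70.2 CPM.

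Poly(A)-tail lengths were compared between mRNAs with and without sites. In each culture, 1488 mRNAs had 50 or more tags, and the median of their mean tails was 102 nt with GFP and 100 nt with miR-1. The median difference was −2.44 nt (SD 7.41 nt over genes). Synthetic standards with nominal tails of 100 and 200 nt were measured at 107 and 191 nt with GFP and at 107 and 189 nt with miR-1. The 275 mRNAs with an 8mer or 7mer differed from 777 no-site mRNAs by 0.0074 (log2; SD over mRNAs 0.11), or 0.68 nt. These mRNAs come from 1 pair of libraries, so that no error of the difference between the cultures can be given. For 59 8mer mRNAs alone the difference was −0.013 (SD 0.11). The 6 8mer mRNAs that were lower in both assays and had enough tags showed −0.014. Tmsb4x, with 2.39-fold fewer tags, had a mean tail of 84.6 nt with GFP and 84.7 nt with miR-1. Across all 1488 genes the change of tail length and that of RNA had a Pearson r of −0.028 and a Spearman rho of −0.028. Tail lengths of the cultures themselves correlated with a Pearson r of 0.827.

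**Figure D5:**
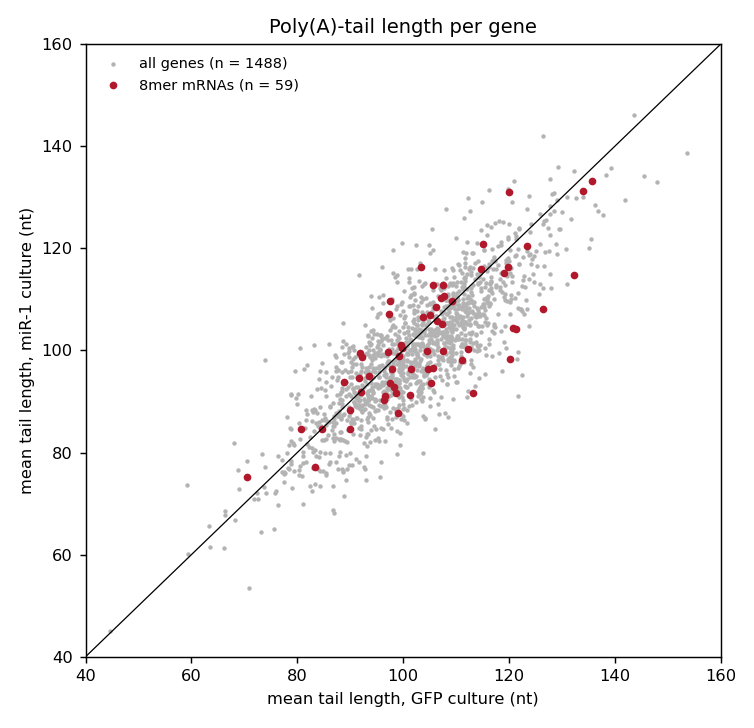
Mean poly(A)-tail length per gene in the GFP culture (x axis, nt) and the miR-1 culture (y axis, nt) for 1488 genes with at least 50 tags in each, with 59 8mer mRNAs in red and the line of equality in black. Red and grey points spread around the same line, and Pearson r over all genes is 0.827.

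The largest single differences in tail length fell on mRNAs with and without sites. The most shortened were Grcc10 (98.8 nt with GFP and 79.7 nt with miR-1), Vps35, a retromer subunit (118 and 99.4 nt), Stard7, a lipid-transfer protein (126 and 108 nt), Cplx2 (132 and 115 nt) and Cnih2, an auxiliary AMPA-receptor subunit (119 and 102 nt). Of these, Stard7 and Cplx2 have an 8mer. The most lengthened were Map2k4, a stress-kinase activator (98.1 and 115 nt), Lmo4, Pfkm, Top2b and Purb, by 12.9 to 17.0 nt, and Purb has an 8mer. In the untransduced culture tails were longer, with a median of 111 nt over the same genes, and Map2k4 stood at 111 nt there. No error of these single means could be computed, since the files give no spread of tails within a gene.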

How the data were processed

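Members, gene lists and comparisons were chosen with earlier results of these data known. The authors' deposited files give, for RNA-seq, counts of reads on the open reading frame without its first bases, with RPM values relative to a larger read total and RPKM values that also divide by length (not used here), and, for TAIL-seq, tag counts with mean tail lengths in nt from a hidden Markov model. Per the labels' processing notes, STAR 2.4.2 and bedtools were used with mm10. Reads on genes made up 18.3% of the RPM total with GFP and 22.3% with miR-1. RNA had been depleted of ribosomal RNA for 6 cultures not named by the study. Sites and 3′ UTRs came from RefSeq on GRCm38.p6, where 15075 of 15186 accessions matched.

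Counts were divided by the library total on genes, and counts under 3 were set to 3. Site effects are class means minus the median of no-site mRNAs after removing a linear trend with log10 3′ UTR length that was estimated from no-site mRNAs. No test was possible with 1 library per group. Named genes needed 50 reads and 30 tags in sum and were ranked by the smaller change of both assays: the 15 lowest 8mer, 10 lowest no-site and 15 highest genes, the 5 lowest with several 8mers, the 5 highest 8mer mRNAs, the 2 lowest and highest of each list, and the 5 largest tail changes each way at 100 tags. Shank1 and Nes, outside this rule, were named after their values were seen, and some genes within it are not reported here. Scripts used Python 3.11.15 with scipy 1.17.1 and R 4.3.3 with edgeR 4.0.16 and DESeq2 1.42.0 for size factors, and were tested on simulated data. RPF libraries of the microRNA cultures were left out because their labels contradict themselves. All printed intervals cover counting error only. Alternatives covered scaling, filters, the floor, the regression and the reference culture.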

Additional observations from a re-analysis of the deposited data

How the results depend on the processing

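Site-class effects stayed below 0 in all 44 alternatives tried, and 19 of them differed from the main value by more than its counting error. All of them use the same miR-1 libraries. The 6mer class was also below 0 in the cultures without miR-1 against GFP. In RNA-seq, the 8mer effect was −0.23 with a mean of at least 30 RPM and −0.35 with 10 reads in sum. The 7mer-m8 effect was −0.21 with 10 RPM in GFP only, −0.22 with 30 RPM, −0.25 with 10 reads, −0.14 against miR-155 and −0.12 against the untransduced culture. In the same order, 7mer-A1 gave −0.16, −0.18, −0.16, −0.093 and −0.089, and 6mer −0.099 and −0.11 with the RPM filters and −0.054 and −0.031 against the 2 references. In tags, against miR-155, 7mer-m8 gave −0.13 and 7mer-A1 −0.047, and with 100 tags in sum 6mer gave −0.064, but −0.0053 against miR-155 and −0.0031 without the 3′ UTR regression, close to 0. Genes lower in both assays numbered 37 with the authors' RPM totals, 28 at 30 RPM and 18 at 2-fold, and genes higher 120, 18 and 4, or 33 where the counting intervals had to exclude 1. Tail length of 8mer mRNAs alone gave −0.013. With 30 RPM, 35.2% of 71 8mer mRNAs were lowest with miR-1, next to 19.2% of all genes. The median of the glycolysis list was −0.0039 in tags and that of published targets 0.027 with the authors' RPM totals, both turned in sign. List medians against the other cultures and with RPM totals were chosen after seeing the data. The RPM totals shift all RNA-seq changes by 0.28 alike and so move these medians and counts by construction. The cause of the other shifts was not tested. No paired analysis was possible because each group has 1 library. Depth limits single genes most: the GFP culture had a median of 49 reads and 30 tags.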
